A study of Mus musculus with 6 samples.

Results

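Keratins and other intermediate filament genes were examined in Met-1 TripZ-200c mouse mammary carcinoma cells. The group was chosen by gene symbol and holds 10 of the 43548 genes in the table: the simple epithelial keratins Krt7, Krt8, Krt18 and Krt19, the basal keratins Krt5, Krt14 and Krt17, Krt80, and the mesenchymal filament genes vimentin (Vim) and nestin (Nes). Met-1 cells come from a late-stage mammary tumor of an MMTV-PyMT mouse, in which a viral promoter drives the polyoma middle T oncogene in the mammary epithelium, and the labels give the strain as FVB/nJ. Into these cells a lentiviral vector had been introduced from which doxycycline (Dox) induces the precursor of the microRNA miR-200c (TripZ-200c), and cells that tightly induced the vector had been isolated by sorting. Sequencing of mRNA covered 3 libraries of cells given vehicle for 48 h (without Dox) and 3 of cells given Dox at 1 µg/mL for the same time, and the question was which genes change when miR-200c is restored to cells that have undergone an epithelial-to-mesenchymal transition (EMT). All 6 libraries came from 1 clone of cells that carry the vector, which also bears a red fluorescent protein tag, so the values describe that clone. Cells with the empty vector were not analysed here, so effects of Dox itself and of miR-200c cannot be told apart in these libraries. In other assays with longer treatment, the paper reports no fall of Zeb1 and no rise of E-cadherin with Dox in empty-vector cells. The labels and the text of the study give 48 h, while a legend ties the sequenced samples to a longer treatment. The replicates are samples that the labels number 1 to 3 within each group, so the p-values measure the spread between these samples, which may be technical.

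Intermediate filaments are rope-like polymers that give cells mechanical strength. Keratin filaments are obligate heteropolymers of an acidic type I keratin and a basic type II keratin. Simple epithelia, such as the luminal cells of the mammary gland, classically pair the type II keratins KRT8 and KRT7 with the type I keratins KRT18 and KRT19, whereas basal and myoepithelial cells pair KRT5 with KRT14 and, in some states, make the type I keratin KRT17. Vimentin, a type III protein that polymerizes with itself, is the filament of mesenchymal cells, and nestin is a large type VI protein that co-assembles with vimentin. A shift from keratin to vimentin filaments is a textbook feature of EMT. MiR-200c opposes EMT by repressing ZEB1 and ZEB2, which are transcription factors that bind E-boxes in the promoters of epithelial genes.

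The sequence of the induced microRNA is shown first because it allows the 10 genes to be searched for direct target sites. RefSeq gives the mature miR-200c-3p below (chr6:124718324-124718346 of GRCm38.p6, minus strand), in which capitals mark the seed, bases 2 to 8 from the 5′ end.
miR-200c-3p: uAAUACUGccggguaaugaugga
The seed pairs with the letters CAGTATT in a 3′ UTR. Of the 10 genes, 9 had no such match in the longest annotated 3′ UTR, and these UTRs ranged from 66 bases in Krt18 to 2648 bases in Krt7. Krt80 held 1 match, at base 688 of its 2648-base 3′ UTR (chr15:101349398-101349404 of GRCm38.p6, minus strand). It is shown with its flanks, the capitals marking the 7 bases that pair with the seed.
Krt80 3′ UTR: cagacacctgaCAGTATTgggggacgaaa
Among all genes with an annotated 3′ UTR, 13.3% (2792 of 21039) held at least 1 match. This share was not matched for UTR length, and all members but Krt7 and Krt80 had UTRs of 421 bases or less. A match is a description of letters and not a measured site.

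Promoters of the simple epithelial keratins are shown because these genes were measured after a change in the E-box-binding ZEB factors. Each window runs from 250 bases before to 50 bases after the transcription start in RefSeq (GRCm38.p6), and capitals mark the E-box letters searched, CACCTG or its reverse complement CAGGTG, read on both strands. The windows were chr15:101412153-101412452 (plus strand) for Krt7, chr15:102004293-102004592 (minus strand) for Krt8 and chr15:102027966-102028265 (plus strand) for Krt18.
Krt7 promoter: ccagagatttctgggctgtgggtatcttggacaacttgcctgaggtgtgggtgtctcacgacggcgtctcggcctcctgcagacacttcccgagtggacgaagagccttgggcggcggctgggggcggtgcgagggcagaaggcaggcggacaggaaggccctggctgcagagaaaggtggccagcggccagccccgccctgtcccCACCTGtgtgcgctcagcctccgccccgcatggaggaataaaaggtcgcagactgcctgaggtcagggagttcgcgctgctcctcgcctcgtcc
Krt8 promoter: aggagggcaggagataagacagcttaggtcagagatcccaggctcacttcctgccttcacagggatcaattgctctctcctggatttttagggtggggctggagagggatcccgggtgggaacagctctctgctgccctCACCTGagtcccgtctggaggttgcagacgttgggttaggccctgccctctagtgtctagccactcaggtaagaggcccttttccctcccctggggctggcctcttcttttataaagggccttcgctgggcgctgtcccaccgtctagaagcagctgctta
Krt18 promoter: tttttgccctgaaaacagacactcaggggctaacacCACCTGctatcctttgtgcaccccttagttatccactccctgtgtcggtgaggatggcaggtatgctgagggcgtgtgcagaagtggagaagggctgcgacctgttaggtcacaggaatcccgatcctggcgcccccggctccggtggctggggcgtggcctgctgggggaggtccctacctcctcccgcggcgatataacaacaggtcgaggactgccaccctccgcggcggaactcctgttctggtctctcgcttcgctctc
Each of these 3 windows held 1 match, which began 44 bases before the start in Krt7, 111 in Krt8 and 214 in Krt18. Krt5 held 1 match as well, 128 bases before its start, and Krt14, Vim and Nes had none. The windows of Krt7, Krt14 and Vim lay wholly inside the bounds of these genes in the GENCODE annotation. Matches near a more upstream start were not counted for them. The other members, Krt17, Krt19 and Krt80, were not matched in the promoter table. In all, 4 of the 7 members with a window had a match, and 22.6% of the 27025 genes with such a window had one. Counted by window, the share was 20.2% of 32851. The data do not measure binding to these letters.

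Expression was read as FPKM, the fragments on a gene scaled by transcript length and library size, so that levels of different genes can be set beside each other. How many reads stand behind a value cannot be read from FPKM. Relative depth, taken from the ratios of low FPKM values between libraries and set to 1 in the first library without Dox, ranged from 0.916 to 1.49. The target genes of miR-200c, Zeb1 and Zeb2, served as the check of induction. Zeb1 fell from 41.0, 42.1 and 42.3 FPKM without Dox to 19.8, 20.3 and 23.6 FPKM with Dox, and the log2 fold change of Zeb2 was -1.81 (SE 0.0795; limma adjusted p = 4.5e-05). The miR-200c gene itself was listed at 0 in every library. A listed 0 need not mean absence, since all 37 mitochondrial genes in the table were listed at 0 as well. Of the 5 epithelial markers other than keratins, Epcam was between 0.0844 and 0.161 FPKM without Dox and between 3.88 and 4.31 FPKM with Dox, and Cdh1 (E-cadherin) between 0.0419 and 0.0776 FPKM and between 0.554 and 1.24 FPKM. Cldn3, the most abundant, was between 108 and 112 FPKM and between 118 and 124 FPKM, Cldn4 was at 0.1001 FPKM or less in every library, and Cldn7 overlapped between the groups, at 0 to 0.965 FPKM and 0.154 to 0.345 FPKM. Fibroblast markers were present in these carcinoma cells: Pdgfrb was between 30.7 and 33.4 FPKM without Dox and between 15.3 and 15.7 FPKM with Dox, and Pdgfra between 18.4 and 18.8 FPKM and between 14.4 and 16.4 FPKM, while Col1a1 and Thy1 were below 1 FPKM. The sum of the fibroblast list, of which Vim is the largest part, went from between 3893 and 4105 FPKM to between 3057 and 3230 FPKM. The part of these markers in the filament values was not tested. Markers of immune and endothelial cells were low: the sum of 4 immune markers lay between 6.34 and 11.3 FPKM without Dox and between 6.70 and 7.57 FPKM with Dox, nearly all of it Cd68, while Cd3e and Emr1 were at 0, and the sum of 4 endothelial markers lay between 4.19 and 5.12 FPKM over all libraries. In bulk RNA, a change in the number of cells of a type and a change in RNA per cell cannot be told apart.

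With Dox, 3 keratin mRNAs rose and both mesenchymal filament mRNAs fell (limma on log2(FPKM + 0.1), adjusted over all 12879 genes tested). Krt7 rose 6.09-fold, Krt18 4.14-fold and Krt80 1.94-fold as ratios of the mean FPKM, and Vim and Nes fell to 0.784 and 0.883 of their means without Dox. Of the 10 members, 3 were called higher and 2 lower. Among all genes tested, 7.06% were called higher and 7.97% lower. The members and the gene lists below were chosen with earlier results of these data known. Counts set beside these shares are therefore descriptions. The groups did not overlap for these 5 genes and for Krt8, and 35% of the 12875 genes tested with a value in all 6 libraries had groups that did not overlap, in either direction. The other 5 members were below the filter of a mean of 1 FPKM: Krt8, Krt14 and Krt17 were measured at low levels, and Krt5 and Krt19 were listed at 0 in every library. Without Dox, the order of the mean levels was Vim, Nes, Krt18, Krt7, Krt80 and Krt8, and no neighbours in that order overlapped. With Dox, Krt18 and Krt7 stood between Vim and Nes, again without overlap between neighbours. In neither group did the libraries separate Krt14 from Krt17.

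**Figure D1:**
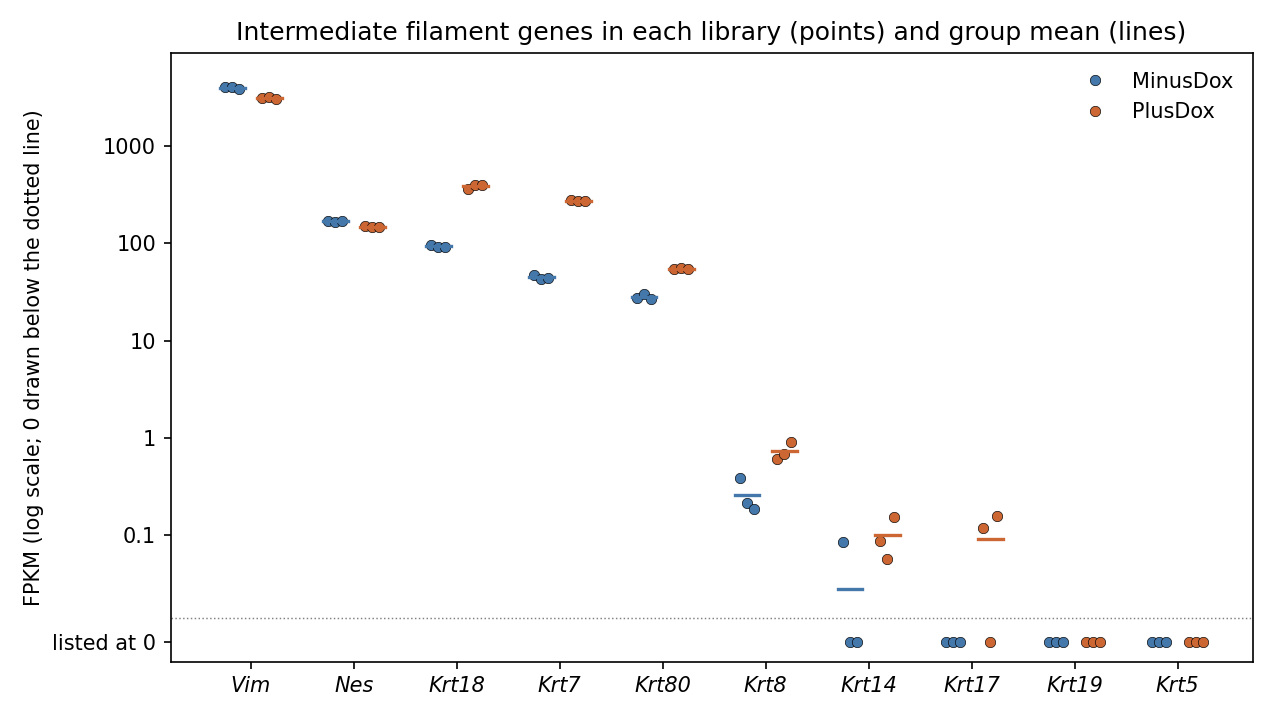
FPKM of the 10 intermediate filament genes (log axis, with libraries listed at 0 drawn below the dotted line) in 3 libraries without Dox (blue) and 3 with Dox (orange); points are libraries and lines are group means. Krt18, Krt7 and Krt80 are higher in all 3 libraries with Dox, Vim and Nes are lower in all 3, and Krt8 stays below 1 FPKM in all 6.

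Krt7 (ENSMUSG00000023039; chr15:101411043-101430313 of GRCm38, plus strand) encodes a type II keratin of glandular and ductal epithelia. Its level was 47.5, 43.1 and 44.4 FPKM in the libraries without Dox and 275, 273 and 275 FPKM in those with Dox. The libraries with Dox were high and close together, and the groups did not overlap. The mean rose from 45.03 ± 2.26 to 274 ± 1.13 FPKM (SD, n = 3 each). The log2 fold change was 2.60 (SE 0.0432, 95% interval 2.50 to 2.71; limma adjusted p = 8.85e-07). By unadjusted p, Krt7 was in place 1 of the 12879 genes tested, and by the size of its increase it was in place 14 of the 909 genes called higher.

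Krt18 (ENSMUSG00000023043; chr15:102028180-102032027, plus strand) encodes the main type I keratin of simple epithelia. Its level was 96.4, 91.2 and 92.1 FPKM without Dox and 364, 395 and 400 FPKM with Dox. Again all libraries with Dox were above all libraries without it. The mean rose from 93.2 ± 2.78 to 386 ± 19.6 FPKM (SD, n = 3 each), with a log2 fold change of 2.05 (SE 0.0457, 95% interval 1.94 to 2.16; limma adjusted p = 3.61e-06). Krt18 was in place 2 by unadjusted p and in place 22 by size among the genes called higher. By mean FPKM over all genes listed it moved from place 1808 without Dox to place 285 with Dox.

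Krt80 (ENSMUSG00000037185; chr15:101347444-101370162, minus strand), a type II keratin that has been linked to cell junctions, lies 40880 bases from Krt7. Vehicle libraries read 27.4, 30.3 and 26.5 FPKM, and Dox libraries 53.9, 55.5 and 54.2 FPKM. The groups did not overlap, and the spread within each was small against the difference. Its log2 fold change was 0.96 (SE 0.0603, 95% interval 0.82 to 1.10; limma adjusted p = 1.77e-04). This was the member with the 3′ UTR match to the seed printed above. An annotated antisense gene, Gm35853, shares 6.30% of the bases of the longest Krt80 transcript, and its part in the value was not tested.

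The increase of Krt7 was larger than that of Krt18 in these libraries. The ratio of Krt7 to Krt18 FPKM was 0.493, 0.473 and 0.482 without Dox and 0.756, 0.691 and 0.687 with Dox. The ratio was higher in all 3 libraries with Dox, and the difference of log2(Krt18/Krt7) was -0.56 (exact two-sided permutation test, p = 0.1, the smallest that 3 against 3 libraries can give). In all, 5 ratios between members were computed, and each gave this p, before and after adjustment over the 5. Between Krt7 and Krt80 the gap widened as well. Krt7 was 1.42 to 1.74 times Krt80 without Dox and 4.91 to 5.10 times Krt80 with Dox. Summed over type II keratins, the level per type I keratin was 0.780, 0.808 and 0.772 without Dox and 0.905, 0.834 and 0.824 with Dox, and this ratio was higher in each library with Dox than in any without it. The type II sum rose 4.49-fold and the type I sum 4.14-fold as ratios of the group means. The type II sum takes Krt8 as listed, below 1 FPKM. Of the bases of the longest Krt8 transcript, 51.8% were at least 95% identical to another annotated gene, and the part of this in the sum was not tested.

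**Figure D2:**
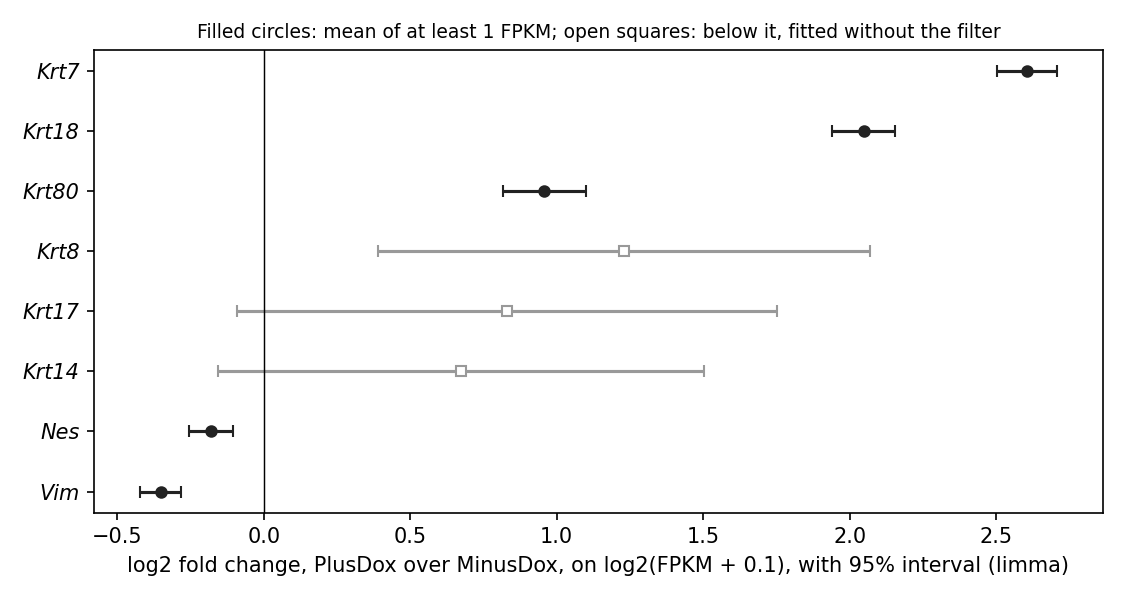
Log2 fold change of the 8 members listed above 0 (x axis, on log2(FPKM + 0.1)) with its 95% interval from limma; filled circles are members with a mean of at least 1 FPKM and open squares are members below it. The intervals of Krt7 (2.50 to 2.71), Krt18 (1.94 to 2.16) and Krt80 (0.82 to 1.10) do not overlap each other, and those of Krt8, Krt17 and Krt14 are wide.

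Krt8 (ENSMUSG00000049382; chr15:101996698-102004482, minus strand), the usual type II partner of Krt18 and its neighbour at 23697 bases, was far lower than Krt18 in every library. Vehicle libraries listed it at 0.388, 0.212 and 0.186 FPKM, and Dox libraries at 0.602, 0.687 and 0.918 FPKM. All 3 libraries with Dox were above all 3 without it. In the fit without the filter the log2 fold change was 1.23 (95% interval 0.39 to 2.07), and the limma adjusted p was 0.0972, which did not pass the threshold of 0.05. The log2 fold change lay between 0.46 and 1.503 over the alternatives, the lowest with a pseudocount of 1. Krt18 was 248 to 494 times Krt8 without Dox and 436 to 604 times Krt8 with Dox, and these ranges overlap. On log2(FPKM + 0.1) the difference of the ratio was 0.82 (exact two-sided permutation test, p = 0.1, the smallest possible), against 1.58 (p = 0.1) with a pseudocount of 1 and 0.55 (p = 0.2) with 0.01. Beside these values stands the fact that 51.8% of the bases of the longest Krt8 transcript were at least 95% identical to another annotated gene, 48.1% to the pseudogene Krt8-ps, and that 29.7% of its 50-base windows, the read length, occur unchanged in another gene. For Krt18, 0.720% of such windows did, and for Vim and Nes none (0%). The part of shared sequence in the level of Krt8 was not tested. Gapdh, of which 82.5% of windows are shared with other genes, was listed at 41.9 to 51.7 FPKM. Actb, of which 14.2% are shared, was listed at 4840 to 5215 FPKM. The part of sharing in the levels of Gapdh and Actb was not tested either.

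Basal keratins stayed at or close to 0. Krt5, which marks basal and myoepithelial cells, was listed at 0 in all 6 libraries, as was the luminal type I keratin Krt19. Krt14, the type I partner of Krt5, read 0.0852, 0 and 0 FPKM in vehicle libraries and 0.0882, 0.0573 and 0.154 FPKM after Dox, and the groups overlapped. Krt17 was at 0 in all libraries without Dox and read 0.119, 0 and 0.156 FPKM in Dox libraries. Neither passed the test in the fit without the filter (limma adjusted p = 0.338 for Krt14 and 0.284 for Krt17). The summed FPKM of the 3 basal keratins reached 0.310 at most, in the third library with Dox. Of the other myoepithelial markers, Acta2 was listed at 0 throughout and Trp63 was between 1.31 and 2.09 FPKM without Dox and between 1.71 and 1.91 FPKM with Dox.

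Vimentin (ENSMUSG00000026728; chr2:13573927-13582826, plus strand) remained the most abundant filament mRNA in every library. Its values were 4055, 3989 and 3840 FPKM in vehicle libraries and 3086, 3198 and 3027 FPKM in Dox libraries. The groups did not overlap, and the lowest library without Dox was above the highest with Dox. The mean fell from 3961 ± 110 to 3104 ± 86.9 FPKM (SD, n = 3 each), with a log2 fold change of -0.35 (SE 0.0298, 95% interval -0.42 to -0.28; limma adjusted p = 5.66e-04). After quantile normalization the log2 fold change was -0.26 and the adjusted p was 0.0519. By mean FPKM over all genes listed, Vim was in place 6 without Dox and in place 10 with Dox. By the size of its decrease, it was in place 544 of the 1026 genes called lower.

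Nestin (ENSMUSG00000004891; chr3:87971078-87980451, plus strand) fell less in size. Vehicle libraries gave 169, 164 and 171 FPKM, and Dox libraries 150, 148 and 146 FPKM. All libraries with Dox were lower, and both groups were tight. The log2 fold change was -0.18 (SE 0.0320, 95% interval -0.26 to -0.10; limma adjusted p = 0.0116). Without the third library with Dox it was -0.17 and the adjusted p was 0.0520. The ratio of Vim to Nes was 22.4 to 24.3 without Dox and 20.5 to 21.6 with Dox.

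Set side by side as classes, the simple epithelial keratins (Krt7, Krt8, Krt18 and Krt19) summed to 144, 135 and 137 FPKM without Dox and to 639, 668 and 676 FPKM with Dox, a ratio of means of 4.77. Vim and Nes together summed to 4224, 4153 and 4011 FPKM without Dox and to 3236, 3347 and 3174 FPKM with Dox, a ratio of 0.788. Neither sum overlapped between the groups. Of the FPKM of all 10 genes, keratins made up 3.88% ± 0.0514 without Dox and 18.04% ± 0.578 with Dox (SD, n = 3 each), and vimentin made up 92.2% ± 0.200 and 78.2% ± 0.584. Simple epithelial per mesenchymal filament mRNA went from 0.0336 ± 0.000992 to 0.203 ± 0.00834. The 10 genes together summed to 4296 ± 112 FPKM without Dox and 3968 ± 89.6 FPKM with Dox. These sums are descriptions and were given no test, and those with keratins take Krt8 as listed.

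**Figure D3:**
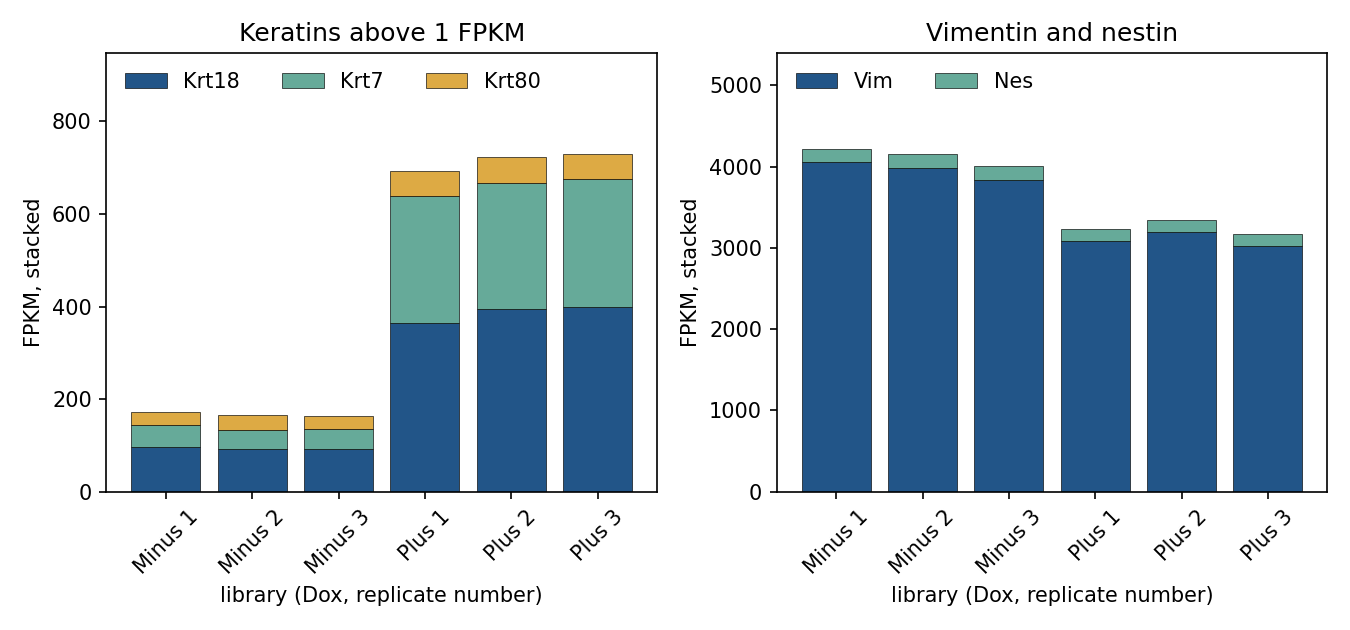
Stacked FPKM (y axis from 0, on different scales in the panels) in each of the 6 libraries for the keratins above 1 FPKM (left) and for vimentin and nestin (right). In the left panel the simple keratins Krt18 and Krt7 make up most of each bar. Krt18 is at 91.2 to 96.4 FPKM without Dox and 364 to 400 with Dox, and Krt7 at 43.1 to 47.5 and 273 to 275. In the right panel Vim falls from 3840 FPKM or more to 3198 or less.

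Genes with profiles most like those of Krt18 and Vim were found by the Euclidean distance of log2(FPKM + 0.1), centred on the mean of each gene over the 6 libraries, among the genes tested. Nearest to Krt18 were Cgn, which encodes the tight junction protein cingulin, at a distance of 0.166, F2rl1, a protease-activated receptor, at 0.387, and Gpr56, an adhesion receptor, at 0.390. Their levels were lower than that of Krt18: Cgn had a mean of 5.91 FPKM without Dox and 24.0 FPKM with Dox, F2rl1 of 6.58 and 30.5 FPKM, and Gpr56 of 4.16 and 20.8 FPKM. Nearest to Vim were Ube2d1 at a distance of 0.0448, Slc6a6, a taurine transporter, at 0.0483, and Rgma at 0.0512. Small distances are easier to reach for a gene with a small change, so the distances of the Krt18 and Vim neighbours are not on equal terms.

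No keratin outside the 10 reached the filter. Of 42 other keratin genes, 12 were above 0 in at least 1 library and 0 had a mean of 1 FPKM. The entry named Krt83 in the table (ENSMUSG00000047641, named Krt87 in the annotation used here), a hair keratin gene 724 bases from Krt7, had the highest mean among them. It was at 0 in all libraries without Dox and read 0.198, 0.161 and 0.388 FPKM in Dox libraries. In the fit without the filter, where 3.81% of 20513 genes were called higher, its limma adjusted p was 0.0212, and between 0.01002 and 0.0805 over 16 alternatives, of which 9 passed. Krt4, chosen after its values were seen, was at 0 without Dox and read 0.125, 0.109 and 0.181 FPKM in Dox libraries (limma adjusted p = 0.0205 without the filter). Krt83 and Krt4 entered that fit only through the libraries with Dox. The log2 fold change of Krt83 ran from 0.32 with a pseudocount of 1 to 4.60 with 0.01. The p-values of these genes are therefore no support for a change. Both levels are far below those of Krt18, Krt7 and Krt80.

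Of 16 other intermediate filament genes listed, 11 were above 0, 6 were tested, 0 were called higher and 2 lower (7.06% and 7.97% of all genes tested), with a median log2 fold change of -0.22 beside 0.0039 over all genes tested. Lmna, which encodes the A-type lamins of the nuclear envelope, read 715, 720 and 709 FPKM in vehicle libraries and 557, 607 and 580 FPKM in Dox libraries, and the groups did not overlap. Its log2 fold change was -0.30 (SE 0.0348; limma adjusted p = 0.00213). Sync, encoding syncoilin, fell by 0.52 on the log2 scale (limma adjusted p = 0.0012). The B-type lamins Lmnb1 and Lmnb2 did not pass (limma adjusted p = 0.285 and 0.201). Lmnb1 was at 116 to 127 FPKM over all libraries, and its groups overlapped. Lmnb2 was at 24.5 to 27.2 FPKM in vehicle libraries and 21.6 to 24.3 FPKM in Dox libraries, without overlap. Iffo2, named here with Prph after their values were seen, was at 22.9 to 23.3 FPKM in vehicle libraries and 24.5 to 27.1 FPKM in Dox libraries, without overlap, and did not pass (limma adjusted p = 0.205). The type III filament gene Prph (peripherin) was lower in all Dox libraries, without overlap. It had a mean log2 fold change of -0.93 and a limma adjusted p of 0.0509. Desmin, internexin and the 3 neurofilament genes were listed at 0.

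Proteins that anchor keratin filaments at desmosomes and hemidesmosomes, or link filaments to other parts of the cytoskeleton, were followed as a list of 23 symbols, of which 22 were matched in the table. Of 14 tested, 9 were called higher and 0 lower, with a median log2 fold change of 0.41. Of all genes tested, 7.06% were called higher and 7.97% lower, with a median of 0.0039. This list too was chosen with earlier results of these data known, so the counts are a description. Itgb4, encoding the integrin β4 chain that ties keratins to hemidesmosomes, had the largest change of the 14. Its values were 3.48, 4.45 and 3.48 FPKM in vehicle libraries and 32.8, 35.0 and 32.2 FPKM in Dox libraries, with no overlap (log2 fold change 3.11, SE 0.111; limma adjusted p = 1.64e-05). Its partner chain Itga6 ranged from 90.2 to 91.3 FPKM in vehicle libraries and from 107 to 111 FPKM in Dox libraries, a log2 fold change of 0.27 (SE 0.0338; limma adjusted p = 0.00309).

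Of the desmosomal genes tested, which are those that reached the filter, all had smaller changes than Itgb4. Jup, encoding plakoglobin, read 31.1, 34.1 and 34.5 FPKM in vehicle libraries and 56.6, 51.0 and 54.7 FPKM in Dox libraries (log2 fold change 0.70; limma adjusted p = 6.51e-04). The plakophilins Pkp1, Pkp3, Pkp2 and Pkp4 had log2 fold changes of 1.26, 0.96, 0.53 and 0.31, the linker periplakin (Ppl) of 0.82, and the desmosomal membrane protein gene Perp of 0.50. Pkp3 did not pass when 1 of 3 libraries was left out, with limma adjusted p between 0.0525 and 0.0636 without replicate 3 of the group without Dox or replicate 2 or 3 of the group with Dox. With the unmoderated model neither Pkp3 nor Pkp4 passed (adjusted p = 0.1003 and 0.0785). Desmoplakin (Dsp), named like Plec after its values were seen, joins keratin filaments to the plaque and was listed at 0.0413 to 0.0553 FPKM without Dox and at 0.0544 to 0.117 FPKM with Dox, and was not called (limma adjusted p = 0.609 without the filter). Dsg2, encoding the desmosomal cadherin desmoglein 2, read 0, 0.0602 and 0.0106 FPKM in vehicle libraries and 0.841, 0.657 and 1.13 FPKM in Dox libraries (limma adjusted p = 0.0055 without the filter). Its log2 fold change was 2.98, and between 0.87 and 5.15 over the alternatives. Lad1, encoding the basement membrane protein ladinin, was at 0, 0.0602 and 0.0424 FPKM and at 0.539, 0.657 and 0.390 FPKM (limma adjusted p = 0.0122 without the filter). The log2 fold change of Lad1 was 2.23, and between 0.56 and 3.99 over the alternatives. With a pseudocount of 0.01 its limma adjusted p rounded to the threshold of 0.05. Dsg2 and Lad1 both stayed close to or below 1 FPKM with Dox. The abundant plakin linkers, which bind vimentin as well as keratin filaments or microtubules, were not called: Plec ranged from 140 to 141 FPKM in vehicle libraries and from 131 to 137 FPKM in Dox libraries (limma adjusted p = 0.185), and Dst had an adjusted p of 0.228. Cd151, a tetraspanin that binds laminin-receptor integrins, ranged from 244 to 263 FPKM in vehicle libraries and from 220 to 241 FPKM in Dox libraries (limma adjusted p = 0.104).

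**Figure D4:**
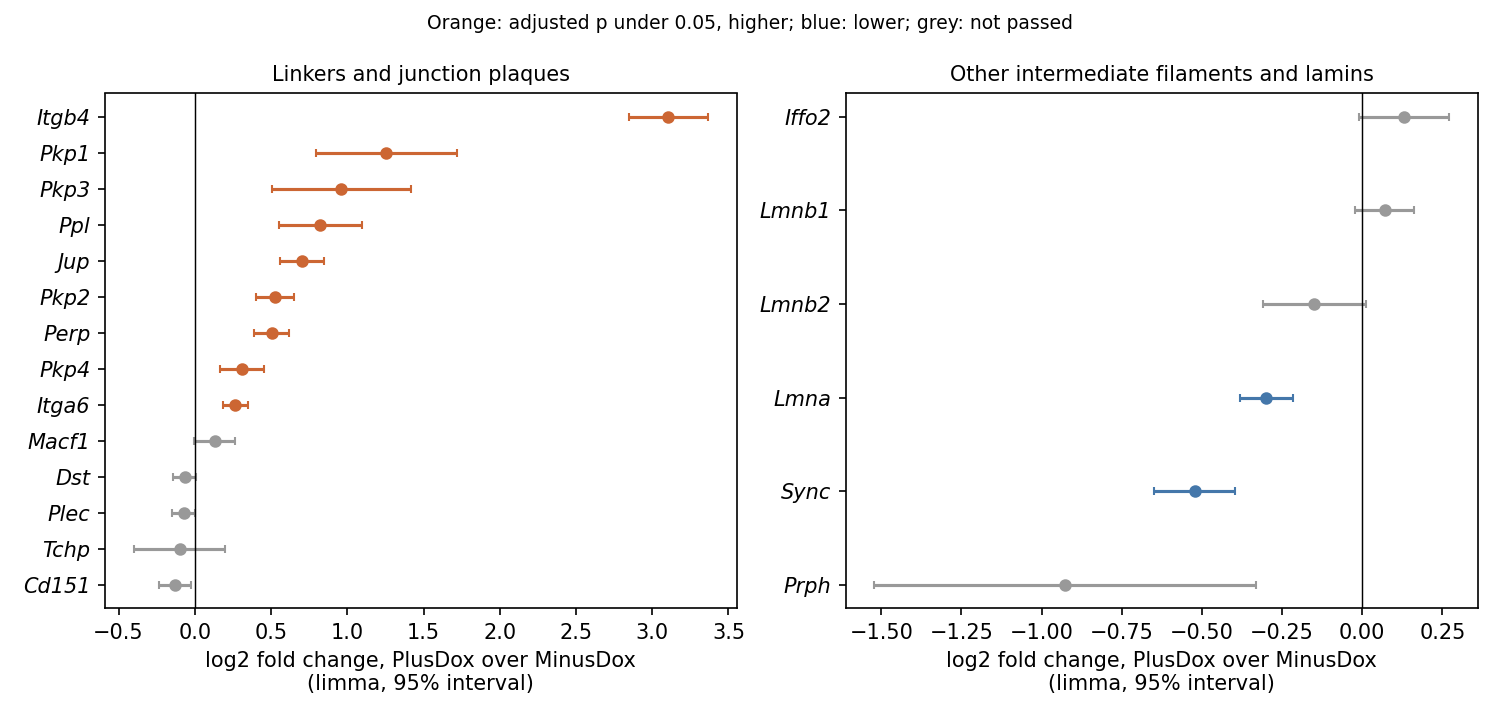
Log2 fold change (x axis, on log2(FPKM + 0.1), 95% interval from limma) of the genes tested in the list of linkers and junction plaques (left, 14 genes) and of other intermediate filaments and lamins (right, 6 genes); orange marks genes called higher and blue genes called lower, grey the rest. Itgb4 stands apart at 3.11, and 9 of 14 linkers are orange, while 2 of 6 filament genes are blue.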

How the data were processed

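Labels gave the group and replicate number of each library. Per the paper's methods, libraries were made with a stranded TruSeq kit, single reads of 50 bases were mapped with gSNAP, and the authors deposited the FPKM of each gene from Cufflinks (GRCm38.p6 in the submitters' processing notes; an FVB/NJ assembly, also named in the methods, was not used here). FPKM removes depth, so the reads behind a value are unknown. Deposited group means, fold changes, p-values and q-values were not used. The table has 43611 rows for 43548 identifiers; repeated identifiers were reduced to their highest row (63 rows dropped), and 6 placeholders were set to missing.

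The 12879 genes whose mean over the libraries was 1 FPKM or more entered limma 3.58.1 (R 4.3.3) as log2(FPKM + 0.1) values (eBayes with a trend, group as the only term, Benjamini-Hochberg adjustment, threshold 0.05), which was tested on simulated data. The pseudocount understates the change of low genes. For lower genes the model was fitted to all 20513 genes above 0. Ratios within a library used an exact permutation test. Named were all members, other keratins with a mean of at least 0.1 FPKM, called genes and the 3 highest of each list, and the 3 nearest profiles to Krt18 and Vim; genes outside this rule are marked where named. Members and lists were chosen with earlier results of these data known. Transcripts (GENCODE M21) were compared with BLAST 2.17.0. Alternatives were pseudocounts of 1 and 0.01, no filter or a minimum of 5 FPKM, quantile normalization, median scaling, no trend, an unmoderated model, a replicate block, repeated rows summed, and leaving out each library. Python 3.11.15, numpy 2.4.6, pandas 2.3.3 and matplotlib 3.10.9 were used.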

Additional observations from a re-analysis of the deposited data

How the results depend on the processing

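No result changed direction under any alternative run. Krt7, Krt18 and Krt80 passed under all 16 alternatives. Vim passed under all but quantile normalization (log2 fold change -0.26, adjusted p = 0.0519), which left 1 member called lower and moved the log2 ratio of the summed Vim and Nes to -0.26; the cause was not tested. Nes passed under all but the fit without the third library with Dox (limma adjusted p = 0.0520), so the members called lower numbered 1 to 2 when each library was left out. Krt8 passed under none of the 16, with limma adjusted p between 0.0526 and 0.243. Over all genes, 1935 were called (909 higher, 1026 lower), against 1284 (593 higher) with the unmoderated model, and from 1069 to 1384 (479 to 688 higher, 590 to 709 lower) when each library was left out, with fewer samples in each fit. Without the third library with Dox, 1069 were called. The same-numbered libraries of the groups did not deviate together (correlations of 0.0287, 0.0359 and -0.00759), so the numbers do not pair them. With the replicate number as a block, 1337 genes were called (633 higher, 704 lower) and members called stayed at 3 higher and 2 lower, but Dsg2, Lad1 and Krt83 no longer passed (limma adjusted p = 0.0511, 0.0617 and 0.0805). The log2(Krt18/Krt8) difference was 0.82 and ranged from 0.61 to 0.96 when each library was left out. It was 0.55 (exact permutation test, p = 0.2) with a pseudocount of 0.01 and 1.58 with 1. Paired by replicate number it gave p = 0.25 (exact permutation test), the smallest that 3 pairs can give. The addition of Krt8 pseudogene rows to Krt8 was not run because no such row was matched in the table used. The unknown number of reads limits every value under 1 FPKM, among them Krt8, Krt14 and Krt17.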
